A study of Mus musculus with 27 samples.

Results

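Muscle of wild-type (WT) mice 14 days after cardiotoxin injury (D14) was compared with WT muscle 7 days after the same injury (D7), with 3 libraries on each day. The genes compared were those that reached 1 TPM in 3 or more of these 6 libraries, which was met by 13685 of the 55852 entries of the deposited table, and the 6 samples are among 27 of the series. TPM, the unit of the deposited values, is the share of a gene among all transcripts of a library after division by gene length. Both groups were male C57BL/6J mice with intact Gsdme whose gastrocnemius was injected with cardiotoxin (CTX), a toxin from cobra venom that kills muscle fibres, and the labels set the groups apart by the day of collection. The deposited design text places the injection in the thigh. The age of the mice is not given in the sources used here, and no source says that animals were pooled. Further groups serve only as background, namely muscle of Gsdme KO mice on the same days and uninjured WT control muscle, the latter from a separately quantified table and therefore set beside the values without a test.

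After CTX, dead fibres are cleared by leukocytes, above all macrophages, while satellite cells, the stem cells of muscle, divide, differentiate and fuse into new fibres. Young fibres first make embryonic and neonatal forms of the contractile proteins and the fetal acetylcholine receptor, and replace these by adult forms as they grow and regain their nerve. Fibro-adipogenic progenitors (FAPs), the connective tissue cells of muscle, lay down a transient matrix in the meantime. The step from D7 to D14 lies in the later part of this process.

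The libraries of the 2 days differed in composition. On D7, from 13934 to 14294 genes reached 1 TPM and from 41.9% to 47% of the TPM fell on the top 50 genes, whereas on D14 these were from 12329 to 12996 genes and from 57.3% to 61.4%. The mitochondrially encoded genes rose from from 9.43% to 11.4% to from 15.1% to 18% of the TPM. None of the 3 measures overlapped between the days, and in an exact two-sided permutation test each gave p = 0.1, the smallest that 3 against 3 allows. Since TPM are shares, more TPM in the most abundant genes leaves less for all others, and the median gene was lower by 0.48 on the log2(TPM + 1) scale on D14 (log2 difference -0.48, quartiles -0.81 and -0.18). At an adjusted p under 0.05 in limma, referred to below as called, 153 genes were higher on D14 (1.12%) and 5020 lower (36.7%). After each library was rescaled by the median of its ratios to the other libraries, which sets the median gene to 0.00, 901 genes were higher (6.58%) and 1525 lower (11.1%), so that the share of calls that were higher moved from 2.96% to 37.1%. All 153 genes called higher and 1525 of those called lower had the same call in both scalings (1.12% and 11.1% of the genes tested), and these are described as held. Scaling raised the median difference from -0.48 to 0.00, which favours calls of higher genes and works against calls of lower ones. Holding is therefore a check of the falls alone and adds little for genes called higher. Of the genes called lower from TPM as deposited, 535 were at or above 0 after scaling. These counts and shares include genes whose direction was fixed by the filter. Through D7 alone 579 genes passed and had to be lower on D14, of which 383 were called lower and 239 held. Through D14 alone 24 passed and had to be higher, of which 15 were called higher and held. Log2 differences below are D14 minus D7 of log2(TPM + 1) as deposited, with the standard error (SE), and are to be read against the -0.48 of the median gene. Without D7 replicate 1 the calls fell to 980 and without D14 replicate 3 to 705, of which 665 and 520 were among the 1678 held genes. Where the 3 libraries of a day do not overlap with those of the other, the share among all genes tested is 62.3% for lower and 5.03% for higher on D14. The limma p-values measure the spread between samples within groups, estimated over all 24 injured libraries in 8 groups and not over these 6 alone. The root mean square SD within a group, on the log2 scale, was 0.29 in WT D7 and 0.33 in WT D14. It was 0.29 in KO D14 and from 0.36 (KO D1) to 0.59 (KO D4) in the other groups. A fit of the 6 libraries alone called 7670 genes.

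**Figure D1:**
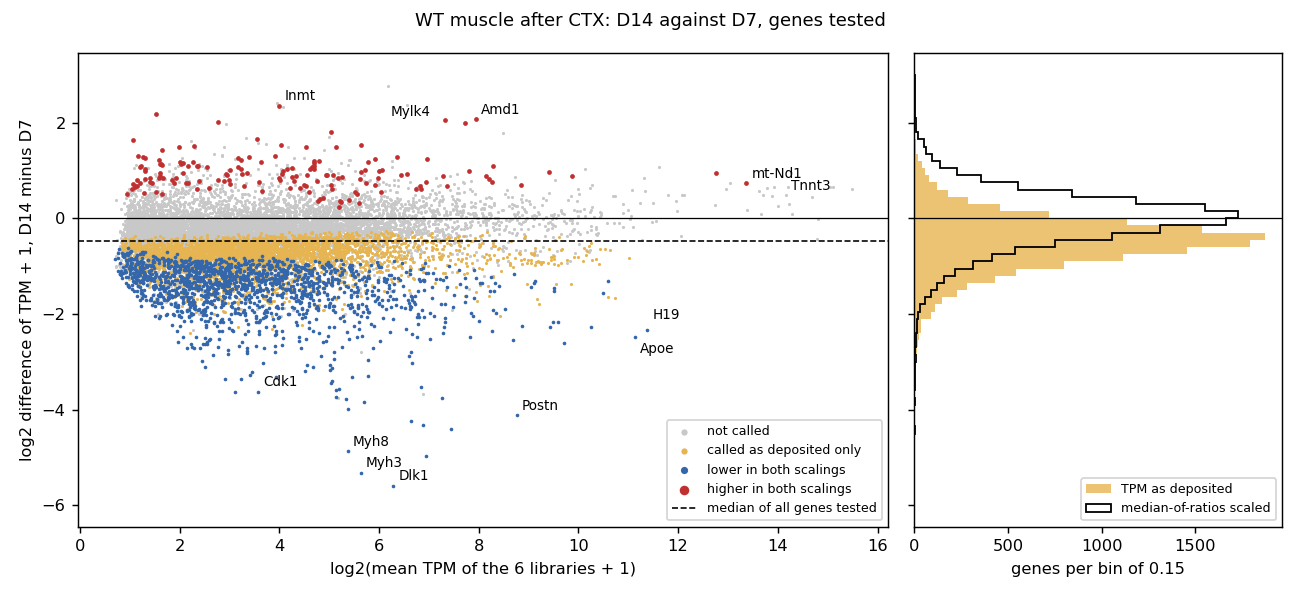
Left, the log2 difference of TPM + 1 (D14 minus D7) of each of the 13685 genes tested against the log2 of its mean TPM + 1 over the 6 libraries, with genes coloured by call. Right, the number of genes per bin of log2 difference as deposited (filled) and after median-of-ratios scaling (line). The deposited differences centre at -0.48 (dashed line) and the lower tail reaches -5.59 for Dlk1, whereas the highest named gene, Inmt, lies at 2.35.

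Genes of immature fibres were among the largest falls. Of 15 developmental muscle genes tested, 10 were called lower (36.7% of all genes tested), 9 of them held (11.1%), and none was called higher, with a median log2 difference of -3.30, and their summed TPM was 9192, 9725 and 7079 in the D7 libraries and 1923, 2305 and 1670 in the D14 libraries. In uninjured control muscle the same sum was 1714 ± 175 (mean ± SD, n = 3). Without D7 replicate 1 and without D14 replicate 3, 9 and 8 members were called lower. Chrng alone passed the filter on low TPM through D7 alone.

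Myh3, the embryonic myosin heavy chain, was at 116, 109 and 61.2 TPM on D7 and at 0.82, 3.52 and 0.52 TPM on D14 (log2 difference -5.32 ± 1.07, adjusted p = 0.00489). Myh8, the neonatal myosin heavy chain, was at 136, 71.1 and 30.6 TPM and then at 1.15, 2.77 and 0.56 TPM (log2 difference -4.86 ± 0.87, adjusted p = 0.00304). In both genes every D14 library lay far below every D7 library, and D14 replicate 2 was the highest of its day. Both genes lie in the myosin heavy chain cluster of chromosome 11 (GRCm38, positions from GENCODE), Myh3 at chr11:67078300-67102291 and Myh8 at chr11:67277124-67308634, with the adult genes Myh2, Myh1 and Myh4 between them on the same strand. Myh4, the chain of fast type IIb fibres, was at 3182, 4141 and 3532 TPM and then at 4590, 4978 and 5576 TPM (log2 difference 0.48 ± 0.37, adjusted p = 0.278), so that its D14 libraries lay above those of D7 but were not called. Myh1, of type IIx fibres, was at 1173, 1170 and 1181 TPM on D7 and at 1098, 417 and 793 TPM on D14 (log2 difference -0.72 ± 0.81, adjusted p = 0.469). Myh2, of type IIa fibres, was at 440.1, 424 and 501 TPM and 659, 177 and 426 TPM and overlapped between the days (log2 difference -0.30 ± 1.60, adjusted p = 0.884). Of the genes placed here, the outer ones, Myh3 and Myh8, therefore fell while those between them were not called. Whether the cluster extends beyond these genes was not examined. Since myosin heavy chain genes are similar in sequence, how reads shared between them were assigned can bear on their TPM.

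**Figure D2:**
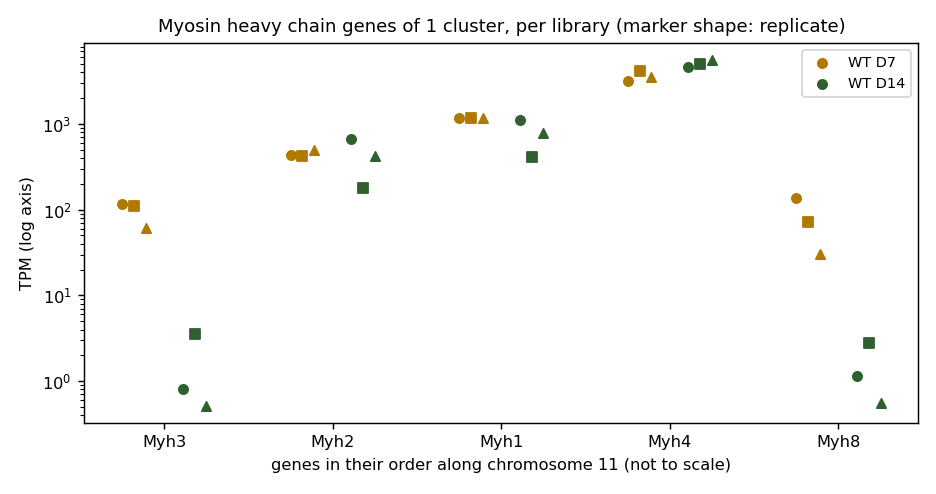
TPM of 5 myosin heavy chain genes on a log axis, in their order along chromosome 11, with 1 point per WT library (circle, square and triangle for replicates 1, 2 and 3). Myh3 and Myh8 are at 30.6 TPM or more in the D7 libraries and at 3.52 TPM or less in the D14 libraries, whereas the days overlap or nearly meet for Myh2, Myh1 and Myh4.

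The other contractile forms of young muscle fell with them. Myl4, the embryonic myosin light chain, was at 548, 302 and 144 TPM on D7 and at 10.9, 30.5 and 5.72 TPM on D14 (log2 difference -4.41 ± 0.82, adjusted p = 0.00352). Tnnt2, the cardiac troponin T that young skeletal fibres also make, was at 143, 55.4 and 27.4 TPM and then 3.41, 5.8 and 1.98 TPM (log2 difference -3.78 ± 0.92, adjusted p = 0.00878). Actc1, cardiac actin, fell from 2678, 2856 and 2252 TPM to 657, 1027 and 805 TPM (log2 difference -1.66 ± 0.37, adjusted p = 0.00674), a call that did not hold after scaling (adjusted p = 0.0698). Acta1, the adult skeletal actin, was at 28798, 30292 and 27492 TPM on D7 and at 30164, 26260 and 28860 TPM on D14, with a log2 difference of -0.02 as deposited and 0.55 after scaling, neither of them called.

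Growth factors and imprinted transcripts of this list fell as well. Dlk1, a membrane protein related to Notch ligands (ENSMUSG00000040856, chr12:109452823-109463336), had the largest fall of all named genes, from 182, 152 and 119 TPM to 2.48, 2.75 and 1.29 TPM (log2 difference -5.59 ± 0.72, adjusted p = 0.000616). The mean of control muscle was 2.15 ± 1.19 TPM. Igf2, a fetal growth factor, was at 379.8, 276 and 197 TPM and then at 17.9, 24.4 and 16.9 TPM (log2 difference -3.75 ± 0.66, adjusted p = 0.00276). H19, a noncoding RNA beside Igf2 on chromosome 7, was at 4363, 5154 and 3726 TPM and then at 987, 963 and 681 TPM (log2 difference -2.34 ± 0.39, adjusted p = 0.00241), and is among the 5 genes with the largest loss of TPM. Mest, an imprinted hydrolase gene outside the list, fell from 337, 214 and 158 TPM to 8.15, 6.74 and 4.26 TPM (log2 difference -4.97 ± 0.78, adjusted p = 0.00208). When 1 library was left out, calls were lost without D7 replicate 1 for Tnnt2 (adjusted p = 0.0561) and without D14 replicate 3 for Tnnt2 (adjusted p = 0.0556), and the other genes called from Myh3 to Mest kept the call.

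The regulators of satellite cells and fusion were lower, in part. Of 16 myogenic regulators, 9 were called lower (36.7% of all genes), 4 held (11.1%), and none higher, at a median of -0.99. D7 replicate 1 was the highest D7 library for all 16. Myog, the transcription factor myogenin that drives differentiation, was at 125, 66 and 47.2 TPM on D7 and at 5.51, 10.2 and 4.68 TPM on D14 (log2 difference -3.31 ± 0.60, adjusted p = 0.00311). Mymk, myomaker, needed for the fusion of myoblasts, was at 50.3, 19.8 and 11.6 TPM and then at 1.26, 2.66 and 0.62 TPM (log2 difference -3.32 ± 0.78, adjusted p = 0.00797). Mymx, myomixer, its partner in fusion, was at 38, 10.7 and 8 TPM and then at 0.24, 2.66 and 0.16 TPM (log2 difference -3.20 ± 0.92, adjusted p = 0.0155). The days did not overlap for any of these 3 genes. Myod1, the determination factor, was called lower (log2 difference -1.19 ± 0.46, adjusted p = 0.0486), as was Pax7, the marker of satellite cells, at 3.24, 2.78 and 2.23 TPM and 1.3, 1.36 and 0.78 TPM (log2 difference -0.81 ± 0.27, adjusted p = 0.0262), but neither held after scaling (adjusted p = 0.209 and 0.115). In bulk muscle, fewer cells of a type and less RNA per cell cannot be told apart. The list kept 1 lower call without D7 replicate 1 and 1 without D14 replicate 3, and calls were lost without D7 replicate 1 for Mymk, Mymx, Myod1 and Pax7 (adjusted p from 0.0532 to 0.181), without D14 replicate 3 for Mymk, Mymx, Myod1 and Pax7 (adjusted p from 0.0521 to 0.157), without D7 replicate 2 for Myod1 and Pax7 (adjusted p = 0.0705 and 0.0585), without D7 replicate 3 for Myod1 (adjusted p = 0.0618) and without D14 replicate 2 for Myod1 (adjusted p = 0.103).

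Some subunits of the acetylcholine receptor were called lower on D14. Of 12 genes of the neuromuscular junction, 5 were called lower and 2 held, beside 36.7% and 11.1% of all genes, with a median of -0.44 close to that of all genes. The shared muscle subunits were called lower, Chrna1 from 32.9, 16.6 and 12.7 TPM to 5.5, 5.27 and 4.1 TPM (log2 difference -1.77 ± 0.56, adjusted p = 0.0219), Chrnb1 from 73.2, 50.5 and 48.9 TPM to 20.5, 18 and 17.5 TPM (log2 difference -1.55 ± 0.29, adjusted p = 0.00352) and Chrnd from 11.4, 5.16 and 3.75 TPM to 1.8, 2.07 and 1.54 TPM (log2 difference -1.35 ± 0.48, adjusted p = 0.0343), but Chrnb1 alone of these held. The fetal subunit Chrng was at 12.2, 2.08 and 1.06 TPM on D7 and at 0.05, 0.54 and 0.13 TPM on D14, which was not called (log2 difference -1.84 ± 0.84, adjusted p = 0.0831), and the adult subunit Chrne was at 14.2, 16.5 and 13.4 TPM and 10.1, 10.5 and 9.89 TPM (log2 difference -0.49 ± 0.29, adjusted p = 0.168), with a difference of 0.04 after scaling. Agrn, the nerve and muscle proteoglycan that clusters the receptor, was held lower (log2 difference -1.19 ± 0.23, adjusted p = 0.00455). In the junction list, the lower calls numbered 2 without D7 replicate 1 and 2 without D14 replicate 3. Of the receptor genes and Agrn, calls were lost without D7 replicate 1 for Chrna1 and Chrnd (adjusted p = 0.115 and 0.177), without D14 replicate 3 for Chrna1 and Chrnd (adjusted p = 0.0864 and 0.11), without D7 replicate 2 for Chrnd (adjusted p = 0.0534), without D14 replicate 1 for Chrnd (adjusted p = 0.0678) and without D14 replicate 2 for Chrnd (adjusted p = 0.0531).

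To show what lies in front of genes that fell, the 200 bases before the start of Myh3 and of Chrna1 are given from RefSeq (GRCm38.p6). Capitals mark a TATA box, searched as TATAAA, and a form of the E-box that myogenic factors bind, searched as CAGCTG, on both strands. Other forms of the E-box were not searched. Myh3 lies on the plus strand (chr11:67078100-67078299) and Chrna1 on the minus strand (chr2:73580339-73580538), and both are printed 5′ to 3′ on the gene's strand.
Myh3: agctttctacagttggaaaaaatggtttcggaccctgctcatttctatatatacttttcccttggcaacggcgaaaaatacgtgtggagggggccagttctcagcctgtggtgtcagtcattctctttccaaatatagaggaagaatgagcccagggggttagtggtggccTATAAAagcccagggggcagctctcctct
Chrna1: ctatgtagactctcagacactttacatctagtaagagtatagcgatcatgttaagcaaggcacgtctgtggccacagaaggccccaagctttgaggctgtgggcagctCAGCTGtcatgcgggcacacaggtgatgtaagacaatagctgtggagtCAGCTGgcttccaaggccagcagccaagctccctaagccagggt
The window of Myh3 held 1 TATA box, whose first base lies 29 bases before the start, and that of Chrna1 held 2 E-boxes, with first bases 92 and 44 bases before the start. The same window of Myog, also searched, held neither TATAAA nor CAGCTG, and that of Mylk4 held 1 E-box of the form searched. Over 250 bases before the start, 3 of 16 promoters of the developmental list (11 of 15 genes matched) and 6 of 14 of the adult fast fibre list (13 of 19 genes matched) held CAGCTG, beside 13% of the 32851 promoters searched. A TATA box was held by 3 and 4 of them, beside 12.4% of those searched. The search left out the promoters of 1 chromosome. These matches are of letters, and say nothing of binding.

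Proliferation genes were lower on D14. Of 35 genes of replication and mitosis, 32 passed the filter and 26 were called lower (36.7% of all genes), 24 of them held (11.1%), and none higher. Of the 32, 16 passed through D7 alone and so had to be lower on D14, and of the other 16, 10 were called lower and 8 held. The summed TPM was 348, 234 and 229 in the D7 libraries and 70.0, 79.8 and 67.1 in the D14 libraries, beside 74.6 ± 2.84 (mean ± SD, n = 3) in control muscle. Cdk1, the kinase that starts mitosis, was at 28.5, 16.3 and 18.3 TPM and then at 0.78, 1.46 and 0.19 TPM (log2 difference -3.63 ± 0.63, adjusted p = 0.0026). Its days did not overlap. Ccnb2, a mitotic cyclin, Top2a, the topoisomerase of dividing cells, and Mki67, the Ki-67 antigen, are among the 16 that passed through D7 alone, so that their direction was fixed by the filter and their values are given as a description. Ccnb2 was at 8.72, 7.48 and 6.19 TPM and then at 0.28, 0.34 and 0.21 TPM, Top2a at 10.8, 7.12 and 6.63 TPM and then at 0.33, 0.39 and 0.42 TPM, and Mki67 at 5.34, 3.54 and 2.84 TPM and then at 0.13, 0.21 and 0.08 TPM. Without D7 replicate 1 and without D14 replicate 3, 8 and 8 members were called lower, and Cdk1 kept its call without any 1 library.

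Promoters of mitotic genes are known for CCAAT boxes beside a cell cycle element (CHR), so the 200 bases before the start of Cdk1 (chr10:69352913-69353112, minus strand) and Ccnb2 (chr9:70421555-70421754, minus strand) are shown, with CCAAT and the CHR letters TTTGAA in capitals on either strand.
Cdk1: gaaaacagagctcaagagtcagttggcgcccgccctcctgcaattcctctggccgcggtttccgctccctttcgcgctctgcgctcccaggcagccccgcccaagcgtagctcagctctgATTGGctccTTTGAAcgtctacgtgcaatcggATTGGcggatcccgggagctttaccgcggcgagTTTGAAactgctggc
Ccnb2: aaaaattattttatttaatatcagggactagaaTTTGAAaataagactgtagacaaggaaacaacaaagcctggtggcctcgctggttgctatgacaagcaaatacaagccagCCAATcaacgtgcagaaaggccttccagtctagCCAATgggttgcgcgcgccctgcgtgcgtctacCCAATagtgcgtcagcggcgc
Each window held 4 matches that did not overlap, 2 of CCAAT and 2 of TTTGAA in Cdk1 and 3 and 1 in Ccnb2. The TTTGAA of Ccnb2 lies 167 bases before the start, upstream of its CCAAT matches at 87, 54 and 21 bases. These too are matches of letters, and whether they act as such elements was not tested. Of 26 promoters of the proliferation list (25 of 32 genes matched), 20 (76.9%) held CCAAT within 250 bases before the start, beside 33.8% of the promoters searched, and 7 (26.9%) held TTTGAA, beside 16%. The collagen and matrix list, described below, held CCAAT in 29.2% of 24 promoters.

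**Figure D3:**
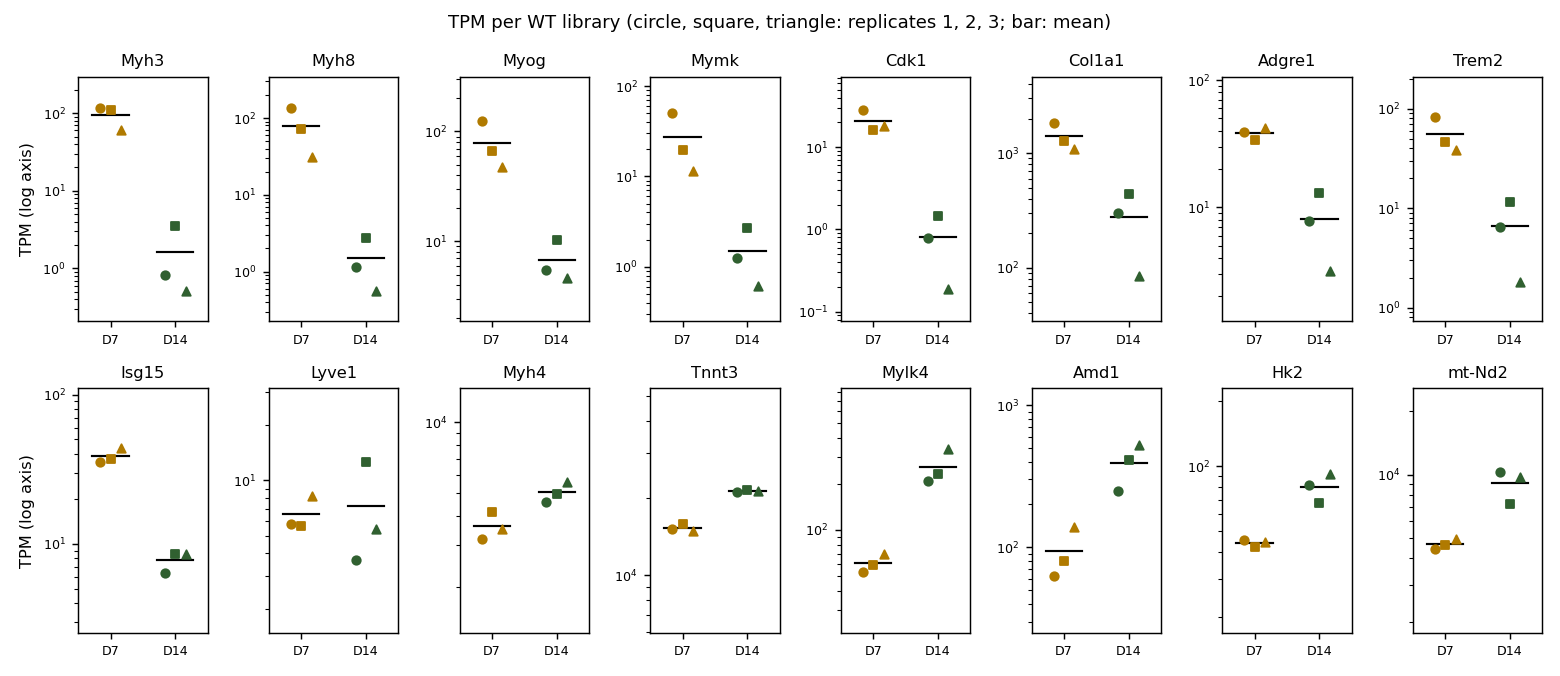
TPM of 16 genes in each WT library on a log axis (circle, square and triangle for replicates 1, 2 and 3, bar for the mean of 3). Genes of young fibres, division, matrix and macrophages lie lower on D14 in every library, Lyve1 overlaps, and Myh4, Tnnt3, Mylk4, Amd1, Hk2 and mt-Nd2 lie higher.

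Genes of the adult fast fibre, of glycolysis and of the mitochondrial genome stood at the other end. Of 19 adult fast fibre genes, 1 was called higher (1.12% of all genes tested) and none lower, 10 had all D14 libraries above all D7 libraries (5.03%), and the median log2 difference was 0.26, which is 0.73 above that of all genes, but 0.01 below it after quantile normalization. Their summed TPM was 163355, 181524 and 168526 on D7 and 179985, 202843 and 190000 on D14, and 252439 ± 12963 (mean ± SD, n = 3) in control muscle. The called gene was Mylk4, a myosin light chain kinase, at 53.1, 58.7 and 70.0 TPM on D7 and at 209, 231 and 337 TPM on D14 (log2 difference 2.05 ± 0.43, adjusted p = 0.00561), with a control mean of 193 ± 68.1 TPM, and its call held without any 1 library. Tnnt3, the fast troponin T, was at 15072, 15852 and 14869 TPM and then at 21179, 21438 and 21226 TPM, without overlap, and Ckm, the muscle creatine kinase, at 9788, 10676 and 10112 TPM and then at 14467, 16186 and 14592 TPM, also without overlap. Neither was called (adjusted p = 0.256 and 0.219), and under quantile normalization the difference of Tnnt3 was -0.02. Of 12 slow fibre genes, Casq2, the calcium buffer of slow fibres and heart, was called lower, from 221, 196 and 133 TPM to 34.4, 30.8 and 29.4 TPM (log2 difference -2.47 ± 0.55, adjusted p = 0.00681), while Myh7, the slow myosin, spread from 141 to 304 TPM on D14 (log2 difference 0.89 ± 2.07, adjusted p = 0.732). Of 15 calcium handling genes only Sypl2, a protein of the triad, was called, and lower (log2 difference -0.84 ± 0.26, adjusted p = 0.0195), which did not hold after scaling.

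Of 23 genes of glycolysis and glycogen, 2 were called higher (1.12% of all genes) and none lower, and 12 lay higher without overlap (5.03%). Hk2, the hexokinase of muscle, rose from 45.7, 42.3 and 44.4 TPM to 82.3, 67.5 and 91.9 TPM (log2 difference 0.84 ± 0.26, adjusted p = 0.0198), and Pfkfb1, which makes the activator of phosphofructokinase, rose from 11.7, 17.3 and 15.9 TPM to 37.2, 26.1 and 41 TPM (log2 difference 1.16 ± 0.45, adjusted p = 0.0481). The summed TPM of the list was 38289, 44258 and 41469 on D7 and 51522, 50590 and 51483 on D14. Of the 13 protein genes of the mitochondrial genome, mt-Nd1 and mt-Nd2, both of complex I, were called higher (log2 difference 0.74 ± 0.23, adjusted p = 0.0215 and log2 difference 0.94 ± 0.35, adjusted p = 0.0434), 12 lay higher without overlap, and 7 were called after scaling (6.58% of all genes). mt-Co1, of complex IV, was at 24551, 25812 and 28266 TPM and then at 45163, 34875 and 44584 TPM and missed the threshold (log2 difference 0.66 ± 0.36, adjusted p = 0.137). Gm28437, Gm29216 and Gm10222, predicted genes listed among the largest gains of TPM, lay higher without overlap and without a call as deposited. They resemble mitochondrial genes, and reads of near-identical copies cannot be told apart. Among the nuclear genes of oxidative phosphorylation, of 79 tested, none was called higher and 2 were called lower, Cox6a1 and Cox8a (log2 difference -1.25 ± 0.32, adjusted p = 0.00982 and log2 difference -1.09 ± 0.30, adjusted p = 0.0131), which are the forms of these complex IV subunits made in most tissues. Of 26 genes of fatty acid oxidation none was called in either direction from TPM as deposited, with 2 higher after scaling. In the fit of the 6 libraries alone, 12 glycolysis genes, 12 mitochondrially encoded genes and 8 fast fibre genes were called higher, in a fit that called 3.53% of all genes higher and 52.5% lower. Calls were lost without D7 replicate 1 for Hk2, Pfkfb1, mt-Nd1, mt-Nd2, Cox6a1, Cox8a and Sypl2 (adjusted p from 0.0561 to 0.161), without D14 replicate 3 for Hk2, Pfkfb1, mt-Nd1, mt-Nd2, Cox6a1, Cox8a and Sypl2 (adjusted p from 0.0617 to 0.152), without D7 replicate 2 for Pfkfb1, mt-Nd2 and Sypl2 (adjusted p from 0.0527 to 0.0847), without D7 replicate 3 for Pfkfb1 and mt-Nd2 (adjusted p = 0.0762 and 0.0703) and without D14 replicate 1 for Pfkfb1 and mt-Nd2 (adjusted p = 0.104 and 0.108).

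The called genes with the largest rises came from several pathways. Inmt, a methyltransferase, was at 2.36, 2.58 and 7.35 TPM on D7 and at 12.1, 43.6 and 22.1 TPM on D14 (log2 difference 2.35 ± 0.67, adjusted p = 0.0145). Amd1 (ENSMUSG00000075232), the decarboxylase of polyamine synthesis, rose from 62.6, 80.4 and 138 TPM to 247, 412 and 523 TPM (log2 difference 2.07 ± 0.56, adjusted p = 0.012), with a control mean of 828 ± 91.8 TPM, and Smox, the spermine oxidase, from 57.5, 72.3 and 123 TPM to 259, 273 and 476 TPM (log2 difference 2.00 ± 0.50, adjusted p = 0.00948). Mettl21c, a methyltransferase of muscle, rose from 26.9, 50.1 and 68.2 TPM to 89.6, 120.2 and 129.7 TPM (log2 difference 1.29 ± 0.45, adjusted p = 0.0341), and Smtnl2, a smoothelin-like protein, from 60.4, 63 and 96.2 TPM to 197, 136 and 185 TPM (log2 difference 1.24 ± 0.41, adjusted p = 0.0264). C7, a complement component, rose from 1.67, 4.48 and 4.88 TPM to 7.1, 39.1 and 7.5 TPM (log2 difference 1.67 ± 0.53, adjusted p = 0.0228), where D14 replicate 2 stood well above the other D14 libraries. Of the 12 genes that the naming rule took from the top, the others were Sap18, Ctxn3, Fam220a, Adhfe1 and Amy1 beside Mylk4. Reads of Amd1 may be shared with its near copy Amd2. Among the 6 genes given here with values, calls were lost without D7 replicate 1 for all of them (adjusted p from 0.0561 to 0.172), without D14 replicate 3 for Inmt, Amd1, Smox, Mettl21c and Smtnl2 (adjusted p from 0.0628 to 0.117), without D7 replicate 2 for Mettl21c and Smtnl2 (adjusted p = 0.0572 and 0.0699), without D14 replicate 1 for Smtnl2 (adjusted p = 0.0712) and without D14 replicate 2 for Inmt, Mettl21c and C7 (adjusted p from 0.0522 to 0.123).

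Matrix genes were lower on D14 nearly throughout the list. Of 36 collagen and matrix genes, 35 were called lower (36.7% of all genes), 29 held (11.1%), and 35 lay lower without overlap (62.3%), at a median of -2.04. Their summed TPM fell from 17245, 12330 and 11784 to 3987, 5722 and 2119 (2807 ± 463 (mean ± SD, n = 3) in control muscle), and D14 replicate 3 was the lowest D14 library for 35 of the 36. Without D7 replicate 1 and without D14 replicate 3, 20 and 14 were called. Col1a1, a chain of type I collagen, was at 1836, 1282 and 1090 TPM on D7 and at 300.2, 439 and 85.2 TPM on D14 (log2 difference -2.60 ± 0.55, adjusted p = 0.00572). Col3a1, of type III collagen, was at 2494, 1729 and 1745 TPM and then at 432, 724 and 211 TPM (log2 difference -2.28 ± 0.51, adjusted p = 0.00656). Postn, periostin, a matrix protein of healing tissue, was at 1253, 658 and 527 TPM and then at 48.9, 90.5 and 17.3 TPM (log2 difference -4.12 ± 1.03, adjusted p = 0.00952). Timp1, an inhibitor of matrix proteases, was at 99.1, 50.5 and 44.8 TPM and then at 5.33, 5.1 and 1.62 TPM (log2 difference -3.73 ± 0.67, adjusted p = 0.00304). In all 4 genes the lowest D7 library was above the highest D14 library. Cthrc1 and C1qtnf3, secreted proteins, and Ptn, a growth factor, were among the 12 largest falls of all (-3.85, -4.24 and -3.98). Of 11 tendon-like matrix genes, 7 were called lower and 3 held, among them Tnmd, tenomodulin (log2 difference -2.07 ± 0.54, adjusted p = 0.0111). In the tendon-like matrix list, the lower calls numbered 1 without D7 replicate 1, 0 without D14 replicate 3 and 4 without D7 replicate 2.

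Among the markers of FAPs themselves, of 16 genes, 7 were called lower (36.7% of all genes), 2 held (11.1%) and 1 was called higher (1.12%), at a median of -0.77. The summed TPM of the list overlapped between the days, with 2187, 2135 and 2490 on D7 and 2035, 3071 and 1519 on D14. Pdgfra, the defining FAP receptor, was at 23.6, 22.1 and 24.6 TPM and then at 13.1, 18.3 and 9.28 TPM and missed the threshold (log2 difference -0.79 ± 0.34, adjusted p = 0.0698). Those held lower were Lamb1, a laminin chain (log2 difference -1.84 ± 0.32, adjusted p = 0.0026), and Fap, a surface protease (log2 difference -1.49 ± 0.39, adjusted p = 0.0111). The gene called higher was Gsn, gelsolin, an actin-severing protein, with 549.7, 593 and 786 TPM on D7 and 1092, 1758 and 850.0 TPM on D14 (log2 difference 0.89 ± 0.28, adjusted p = 0.0212). It was named after its values were seen. No test compared the FAP list with the matrix list. In the FAP list, the lower calls numbered 2 without D7 replicate 1 and 1 without D14 replicate 3. Calls of the matrix and FAP genes given here were lost without D7 replicate 1 for Postn, Cthrc1, C1qtnf3, Tnmd, Fap and Gsn (adjusted p from 0.0541 to 0.0925), without D14 replicate 3 for Col3a1, Postn, Cthrc1, C1qtnf3, Tnmd and Fap (adjusted p from 0.0523 to 0.0822), without D7 replicate 2 for Gsn (adjusted p = 0.0561) and without D14 replicate 2 for Gsn (adjusted p = 0.0977).

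**Figure D4:**
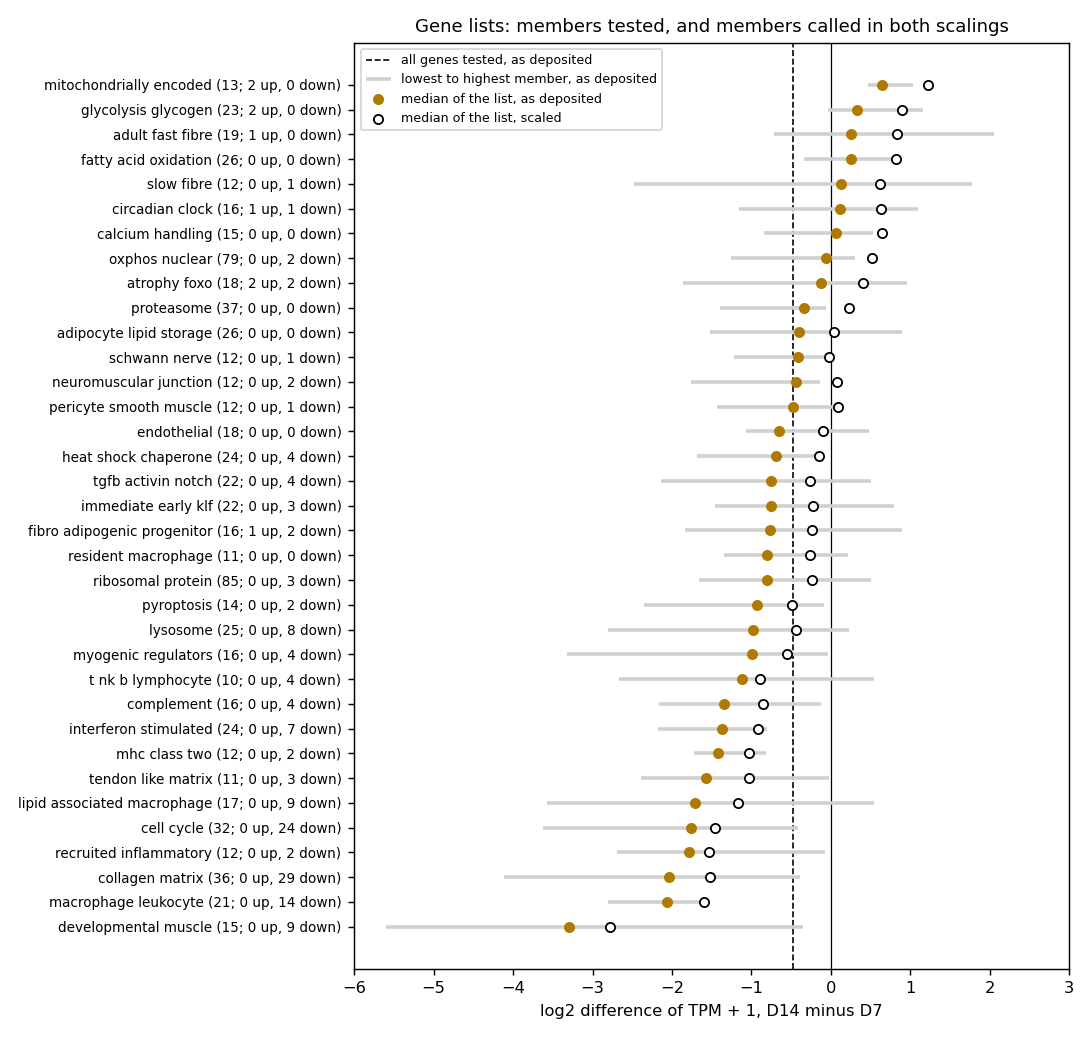
For each gene list with at least 9 members tested, the median log2 difference of its members as deposited (filled) and after scaling (open), over the lowest to highest member (grey). The label gives the members tested and those called in both scalings, and the dashed line marks the median of all genes at -0.48. Developmental muscle, macrophage and matrix lists lie farthest to the left, and the mitochondrially encoded and glycolysis lists farthest to the right.

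Leukocyte transcripts were lower on D14. All 21 macrophage and leukocyte genes were called lower (36.7% of all genes) and lay lower without overlap (62.3%), 14 held (11.1%), at a median of -2.07. Their summed TPM went from 2475, 1841 and 1713 on D7 to 417, 737 and 210.1 on D14, beside 232 ± 28.7 (mean ± SD, n = 3) in control muscle. These calls depended on D7 replicate 1 and D14 replicate 3, without which 1 and 0 of the 21 remained called. Adgre1, the macrophage receptor F4/80, was at 39.5, 33.6 and 42.2 TPM and then at 7.87, 13.1 and 3.18 TPM (log2 difference -2.29 ± 0.61, adjusted p = 0.0117). Cd68, a lysosomal protein of phagocytes, was at 104, 64.7 and 50.8 TPM and then at 13.5, 25.4 and 7.65 TPM (log2 difference -2.25 ± 0.62, adjusted p = 0.0132). D14 replicate 2 was the highest and D14 replicate 3 the lowest D14 library in both, as in 20 and 21 of the 21 genes. Of 17 tested genes (of 18 listed) of lipid-associated macrophages, 13 were called lower and 9 held, among them Trem2, the lipid receptor, from 82.9, 46.4 and 38.1 TPM to 6.5, 11.6 and 1.81 TPM (log2 difference -3.07 ± 0.78, adjusted p = 0.0102), Spp1, osteopontin, from 112, 70.3 and 21.2 TPM to 3.81, 5.9 and 2.17 TPM (log2 difference -3.58 ± 0.92, adjusted p = 0.0106), and Apoe, the lipid carrier (log2 difference -2.49 ± 0.62, adjusted p = 0.00943), which had one of the 5 largest losses of TPM. In the lipid-associated macrophage list, the lower calls numbered 1 without D7 replicate 1 and 0 without D14 replicate 3. Gpnmb overlapped between the days (71.7, 23.8 and 11.2 and 4.26, 11.9 and 2.09 TPM) and was called lower (adjusted p = 0.0382) without holding. Its call was lost without D7 replicate 1 or 2 and without D14 replicate 1 or 3 (adjusted p from 0.0664 to 0.193).

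Among markers of tissue-resident macrophages, of 11 tested (of 13 listed), 3 were called lower, below the 36.7% of all genes, and none held, at a median of -0.80. Lyve1, a hyaluronan receptor, was at 5.76, 5.65 and 8.17 TPM on D7 and at 3.7, 12.6 and 5.4 TPM on D14, and Cd163, the haptoglobin receptor, at 10.5, 9.56 and 9.85 TPM and 6.21, 10.2 and 8.84 TPM. Both overlapped between the days, and neither was called (log2 difference 0.00 and -0.25, adjusted p = 0.993 and 0.518, and 0.49 and 0.28 after scaling). Folr2, a folate receptor, and Stab1, a scavenger receptor, were called lower (log2 difference -1.15 ± 0.42, adjusted p = 0.0386 and log2 difference -1.35 ± 0.44, adjusted p = 0.0254) without holding after scaling. Of 12 inflammatory genes of recruited monocytes, 2 of which passed the filter through D7 alone, 3 were called lower, with Cxcl10, an interferon-induced chemokine (log2 difference -2.52 ± 0.62, adjusted p = 0.00904), and Thbs1, thrombospondin (log2 difference -2.70 ± 0.63, adjusted p = 0.00779), held. The other 9 genes of that list, Il1b among them, did not reach the filter. A difference between the resident and other macrophage lists was not tested. In the resident macrophage list, the lower calls numbered 1 without D7 replicate 1, 0 without D14 replicate 3, 1 without D14 replicate 1 and 5 without D14 replicate 2. Those of the recruited monocyte list numbered 1 without D7 replicate 1 and 0 without D14 replicate 3. Beside that of Gpnmb, calls of macrophage genes were lost without D7 replicate 1 for Adgre1, Cd68, Trem2, Spp1, Apoe, Folr2, Stab1 and Cxcl10 (adjusted p from 0.0503 to 0.1). Without D14 replicate 3 they were lost for these and for Thbs1 (adjusted p from 0.0547 to 0.185). Folr2 also lost its call without D7 replicate 2 (adjusted p = 0.0702) and without D7 replicate 3 (adjusted p = 0.0844). Without D14 replicate 1 calls were lost for Folr2 and Stab1 (adjusted p = 0.0866 and 0.0565).

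Genes of antigen presentation, complement and the interferon response were lower on D14 in part. All 12 tested genes (of 15 listed) of MHC class II presentation were called lower, but 2 held. Of the 12, 2 passed the filter through D7 alone and so had to be lower on D14. The other 10 were all called lower (36.7% of all genes), and 1 of them held (11.1%). H2-Aa, a class II chain, was even on D7 at 367, 371 and 373 TPM and spread on D14 at 135, 197 and 52.4 TPM (log2 difference -1.72 ± 0.55, adjusted p = 0.024), with a scaled adjusted p of 0.0733. Of 16 complement genes 10 were called lower and 4 held, among them C1qa and C1qb, chains of the recognition molecule C1q (log2 difference -2.04 ± 0.50, adjusted p = 0.00904 and log2 difference -2.16 ± 0.54, adjusted p = 0.00914). Of 24 interferon-stimulated genes 18 were called lower (36.7% of all genes), 7 held (11.1%), and all 24 lay lower without overlap (62.3%), 1 of them, Mx1, having passed the filter through D7 alone, with a summed TPM of 478, 479 and 481 on D7 and 145, 170.4 and 112 on D14. Isg15, a ubiquitin-like protein, was at 35.3, 36.9 and 43.9 TPM and then at 6.35, 8.54 and 8.57 TPM (log2 difference -2.18 ± 0.59, adjusted p = 0.0129), and Irf7, a factor of the interferon loop, at 30.8, 35.2 and 31.1 TPM and then at 5.49, 10.1 and 6.96 TPM (adjusted p = 0.0136). Of 21 lymphocyte genes 10 passed the filter, 3 of them, Gzma, Lck and Nkg7, through D7 alone, so that they had to be lower on D14. Of the other 7, 3 were called lower and 1 held, which was Ccl5, a T cell chemokine (log2 difference -2.67 ± 0.68, adjusted p = 0.0102). Mx1 was named after its values were seen. In the class II list, the lower calls numbered 0 without D7 replicate 1, 0 without D14 replicate 3, 7 without D7 replicate 2 and 7 without D7 replicate 3. Those of the complement list numbered 2 without D7 replicate 1 and 0 without D14 replicate 3. Those of the interferon-stimulated list numbered 1 without D7 replicate 1, 0 without D14 replicate 3, 11 without D7 replicate 3 and 11 without D14 replicate 1. Those of the lymphocyte list numbered 2 without D7 replicate 1 and 0 without D14 replicate 3. Calls of the named genes were lost without D7 replicate 1 for H2-Aa, Isg15 and Irf7 (adjusted p from 0.052 to 0.0761), without D14 replicate 3 for all of them (adjusted p from 0.0566 to 0.145) and without D7 replicate 2 for H2-Aa (adjusted p = 0.052).

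Most ribosomal protein genes were called lower as deposited, and few after scaling. Of 85 tested (of 91 listed), 65 were called lower from TPM as deposited (36.7% of all genes) but 3 held (11.1%), at a median of -0.81. Their summed TPM went from 69816, 62668 and 60944 to 35567, 44903 and 33018 (35924 ± 3360 (mean ± SD, n = 3) in control muscle). In the ribosomal protein list, the lower calls numbered 4 without D7 replicate 1, 1 without D14 replicate 3 and 36 without D14 replicate 1. Eef1a1, an elongation factor replaced by Eef1a2 in adult fibres, fell from 2766, 2183 and 2005 TPM to 701, 1102 and 521 TPM (log2 difference -1.64 ± 0.51, adjusted p = 0.0205), which did not hold after scaling (adjusted p = 0.0561). Of 24 chaperones 8 were called lower, a share below the 36.7% of all genes, and 4 held, which included Pdia3 and Pdia6, disulfide isomerases of the endoplasmic reticulum (log2 difference -1.69 ± 0.47, adjusted p = 0.0137 and log2 difference -1.43 ± 0.38, adjusted p = 0.0119). Of 37 tested proteasome genes (of 39 listed) 11 were called lower, which is also below that share, and none held, the largest differences being those of the immunoproteasome subunits Psmb8 and Psmb9 (-1.39 and -1.30). Of 25 tested lysosomal genes (of 26 listed) 18 were called lower (36.7% of all genes) and 8 held (11.1%), led by Ctss, a cathepsin of antigen-presenting cells (log2 difference -2.80 ± 0.87, adjusted p = 0.0206), and Ctsz, another cathepsin (log2 difference -1.80 ± 0.45, adjusted p = 0.00978). In the chaperone list, the lower calls numbered 0 without D7 replicate 1, 0 without D14 replicate 3, 5 without D7 replicate 2 and 4 without D14 replicate 1. Those of the proteasome list numbered 0 without D7 replicate 1, 0 without D14 replicate 3, 6 without D7 replicate 2, 6 without D14 replicate 1 and 7 without D14 replicate 2. Those of the lysosomal list numbered 1 without D7 replicate 1 and 0 without D14 replicate 3. Calls were lost without D7 replicate 1 for all of them (adjusted p from 0.0544 to 0.0873) and without D14 replicate 3 for all of them (adjusted p from 0.0628 to 0.105).

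Of the markers of vessels, nerve and fat few held after scaling. Of 18 endothelial genes 10 were called lower (36.7% of all genes) and none held, among them Pecam1, the adhesion molecule CD31 (log2 difference -0.88 ± 0.22, adjusted p = 0.0096, scaled -0.31). Of 12 pericyte and smooth muscle genes 4 were called lower and 1 held, Acta2, smooth muscle actin, from 276, 153 and 159 TPM to 54.3, 84.2 and 72.9 TPM (log2 difference -1.43 ± 0.27, adjusted p = 0.00381). Of 12 tested Schwann cell genes (of 13 listed) 2 were called lower, 1 of them, Egr2, having passed the filter through D7 alone. Of 26 tested adipocyte and lipid storage genes (of 29 listed) 4 were called lower, 1 of them, Elovl6, having passed the filter through D7 alone, led by Thrsp, a regulator of lipid synthesis (log2 difference -1.52 ± 0.33, adjusted p = 0.00639), and none held. Adipoq, adiponectin, was at 9.41, 7.41 and 10.1 TPM on D7 and at 2.65, 4.92 and 2.2 TPM on D14, and Plin1, the coat protein of lipid droplets, at 3.71, 2.7 and 3.9 TPM and 1.41, 1.98 and 1.12 TPM. The days did not overlap for these genes and neither was called (adjusted p = 0.177 and 0.287). In the endothelial list, the lower calls numbered 2 without D7 replicate 1, 1 without D14 replicate 3, 5 without D7 replicate 2, 3 without D7 replicate 3 and 5 without D14 replicate 1. Those of the pericyte list numbered 2 without D7 replicate 1, 2 without D14 replicate 3, 2 without D7 replicate 3 and 2 without D14 replicate 2. Those of the Schwann cell list numbered 1 without D7 replicate 1 and 1 without D14 replicate 3. Those of the adipocyte list numbered 1 without D7 replicate 1 and 1 without D14 replicate 3. Of Pecam1, Acta2 and Thrsp, a call was lost without D14 replicate 3 for Pecam1 (adjusted p = 0.0608).

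Of the genes of fibre growth, wasting and daily rhythm, some were called in each direction, beside 36.7% of all genes called lower and 1.12% called higher. Of 18 atrophy and FoxO genes 2 were called higher, Trim63, a ubiquitin ligase of muscle wasting (log2 difference 0.61 ± 0.23, adjusted p = 0.0471), and Foxo4, a forkhead factor (log2 difference 0.56 ± 0.17, adjusted p = 0.0188), and 4 lower. Among those called lower, Igf1, the growth factor, fell from 39.1, 32.7 and 31.4 TPM to 12.7, 13 and 7.53 TPM (log2 difference -1.58 ± 0.33, adjusted p = 0.00546) and Cdkn1a, the cell cycle inhibitor p21, from 100.4, 59.7 and 45.7 TPM to 17.2, 21.1 and 13.8 TPM (log2 difference -1.86 ± 0.39, adjusted p = 0.00572), and both held. Mstn, myostatin, an inhibitor of muscle growth, was at 8.6, 9.79 and 11.4 TPM and 9.08, 14.5 and 25.5 TPM, and Pdk4, the fasting-induced kinase of pyruvate dehydrogenase, at 140.4, 85.8 and 74.2 TPM and 251, 145 and 145 TPM, neither of them called (adjusted p = 0.324 and 0.226). Of 22 tested genes (of 25 listed) of the TGF-beta, activin and Notch pathways 10 were called lower and 4 held, with Tgfb1 from 35.4, 31.6 and 32.3 TPM to 10.7, 14.6 and 6.94 TPM (log2 difference -1.59 ± 0.41, adjusted p = 0.0104) and Fstl1, a follistatin-like protein (log2 difference -2.14 ± 0.53, adjusted p = 0.00933). Of 22 tested immediate early and Klf genes 11 were called lower and 3 held, 1 of which, Egr2, had passed the filter through D7 alone. Of 16 clock genes, Ciart, a repressor of the clock, was called higher (3.15, 1.99 and 1.25 and 2.58, 8.08 and 7.44 TPM, overlapping), and Npas2 and Arntl, its activators, lower (log2 difference -1.16 ± 0.27, adjusted p = 0.00707 and log2 difference -0.73 ± 0.21, adjusted p = 0.0156), the latter without holding. The hour of collection is not given in the sources used here. Trim63 and Foxo4 were named after their values were seen. In the atrophy list, the lower calls numbered 2 without D7 replicate 1, 2 without D14 replicate 3 and 2 without D14 replicate 1. Those of the TGF-beta list numbered 3 without D7 replicate 1 and 2 without D14 replicate 3. Those of the immediate early list numbered 4 without D7 replicate 1, 2 without D14 replicate 3, 6 without D7 replicate 2 and 5 without D7 replicate 3. Those of the clock list numbered 1 without D7 replicate 1, 0 without D14 replicate 3 and 1 without D14 replicate 2. Calls were lost without D7 replicate 1 for Trim63, Foxo4, Tgfb1, Fstl1 and Arntl (adjusted p from 0.0512 to 0.0691), without D14 replicate 3 for Trim63, Foxo4, Tgfb1, Fstl1, Ciart, Npas2 and Arntl (adjusted p from 0.0537 to 0.175), without D7 replicate 2 for Trim63, Foxo4 and Ciart (adjusted p from 0.0507 to 0.0904), without D7 replicate 3 for Trim63 and Ciart (adjusted p = 0.142 and 0.089), without D14 replicate 1 for Trim63 and Foxo4 (adjusted p = 0.0662 and 0.054) and without D14 replicate 2 for Trim63, Ciart and Arntl (adjusted p from 0.06 to 0.092).

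Gsdme, the pore-forming gasdermin E that the series is about, was at 2.51, 1.8 and 2.15 TPM on D7 and at 1.46, 2.21 and 2.26 TPM on D14, overlapped between the days and was not called (log2 difference -0.09 ± 0.19, adjusted p = 0.706, with 0.31 after scaling). Of 22 genes of pyroptosis, the lytic cell death that gasdermins execute, 14 passed the filter, 2 of them through D7 alone, 6 were called lower and 2 held, beside 36.7% and 11.1% of all genes. In the pyroptosis list, the lower calls numbered 2 without D7 replicate 1, 1 without D14 replicate 3 and 3 without D14 replicate 1. Among those held was Casp8, an initiator caspase, from 15.7, 11.8 and 11.1 TPM to 4.11, 5.5 and 3 TPM (log2 difference -1.43 ± 0.41, adjusted p = 0.0159). Pycard, the adaptor of inflammasomes, was called lower without holding (log2 difference -1.62 ± 0.54, adjusted p = 0.0271). Il18, the cytokine, was at 3.7, 3.39 and 2.89 TPM and 2.27, 2.81 and 0.98 TPM and was not called (log2 difference -0.57 ± 0.45, adjusted p = 0.305). Of these genes, calls were lost without D7 replicate 1 for Casp8 and Pycard (adjusted p = 0.075 and 0.109), without D14 replicate 3 for Casp8 and Pycard (adjusted p = 0.0811 and 0.109) and without D14 replicate 1 for Pycard (adjusted p = 0.0842).

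The same step in KO muscle was used to ask whether the WT changes depended on Gsdme. For the difference of the 2 steps, KO minus WT, limma called 0 of 13685 genes, with 425 at an unadjusted p under 0.05 and a lowest adjusted p of 0.777. Median-of-ratios scaling also gave 0 calls, whereas library quality weights gave 53 and dropping the filter gave 1. Among the held WT genes, the median log2 difference of those lower on D14 was -1.35 in WT and -0.82 in KO, and of those higher 0.90 in WT and 0.61 in KO, while the median of all genes was -0.48 in WT and -0.20 in KO. Since these genes were chosen on the WT values, a smaller KO value is what the choice favours, and this is given as a description. By list, the median of developmental muscle was -3.30 in WT and -2.73 in KO, that of collagen and matrix -2.04 and -1.51, that of macrophages -2.07 and -1.31, and that of adipocyte and lipid storage -0.40 and 0.62. Differences between these medians were not tested.

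**Figure D5:**
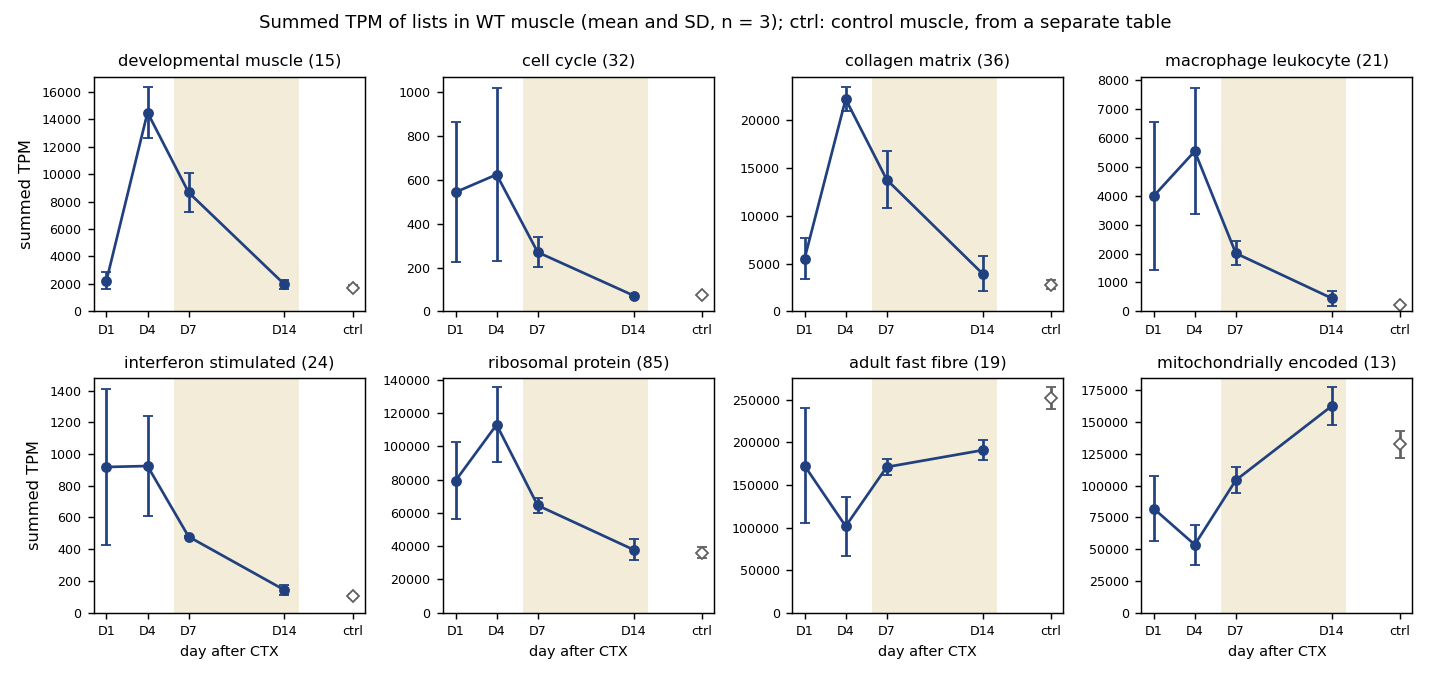
Summed TPM of 8 gene lists in WT muscle against the day after CTX (mean and SD of 3 libraries), with the step from D7 to D14 shaded and control muscle from the separate table as an open diamond. The first 6 lists have their highest mean on D4 and a lower mean on D14 than on D7. The adult fast fibre and mitochondrially encoded lists have their lowest mean on D4. Libraries of D1 and D4 spread widely, as in the interferon-stimulated list (919 ± 493 and 925 ± 318 TPM), and D1 was not tested against D4.

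Most of the held genes had their extreme WT mean on D4. Of the 1525 genes held lower, 1241 had their highest WT mean on D4, 165 on D7 and 119 on D1, and 1392 had their lowest on D14. Of the 153 held higher, 117 had their lowest WT mean on D4 and 118 their highest on D14. These means are of TPM as deposited, and the choice of the genes set the order of D7 and D14. The median-of-ratios factors were from 1.19 to 1.55 in WT D4 and from 0.66 to 0.77 in WT D14. Most genes thus tend to lie high on D4 and low on D14. The same shares over all genes tested were not computed, so the counts are a description. The 6 libraries took unequal parts in the calls of the held genes. D7 replicate 1 was the highest D7 library for 86% of the genes held lower, beside 66.5% of all genes tested, and D14 replicate 3 was the lowest D14 library for 87.9%, beside 57.4%. Since the calls themselves used these libraries, the first of each pair is a description. Markers of pancreas, liver, epidermis and heart were low, whereas those of erythrocytes and brown adipocytes were not. The skeletal muscle markers fixed for the check held 87772, 98461 and 89659 summed TPM on D7 and 93079, 99942 and 94179 on D14, while 1 of 16 pancreatic acinar genes, 2 of 10 liver, 4 of 11 epidermal and 1 of 10 cardiac genes passed the filter, with sums of at most 15.2 TPM in a library. Erythrocyte genes (5 of 8 passed) held 1990, 2656 and 3839 on D7 and 2088, 2195 and 2496 on D14 and overlapped. In control muscle they held 1685 ± 272 (mean ± SD, n = 3). Of 8 brown adipocyte genes 6 passed the filter and 1 was called lower, without holding. They held 1563, 1802 and 2094 summed TPM on D7 and 2352, 2090 and 2246 on D14 and overlapped. Uninjured control muscle held 2326 ± 91.6 (mean ± SD, n = 3) of the same genes. The part of erythrocyte and brown adipocyte genes in the results above was not tested.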

How the data were processed

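RNA-seq of mouse muscle was taken from the gene TPM that the authors deposited. Per the submitters' processing notes the build was mm10. The aligner, counter and annotation version are not given in the sources used here. Columns of the authors' group means were not used. TPM keep no read totals, so the depth behind each value is unknown.

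Samples were grouped by their labels, 3 per group. Nothing says whether samples of a group were separate animals. Genes with TPM of at least 1 in 3 or more of the 6 WT D7 and D14 libraries were tested on log2(TPM + 1), a scale that understates changes of low genes, with limma 3.58.1 in R 4.3.3 (lmFit, eBayes with trend) over the 24 injured libraries in 8 groups, which share 1 estimate of the spread. P-values were adjusted by the method of Benjamini and Hochberg over all genes tested, and called at 0.05. The difference of the KO and WT steps was an interaction contrast. Library measures were compared by exact two-sided permutation tests (SciPy 1.17.1). The fit was tested on simulated data. Python 3.11.15 and pandas 2.3.3 were used.

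Named genes were the 12 with the largest and the 12 with the smallest log2 difference among called genes whose days did not overlap, whose mean on the higher day reached 10 TPM and that had no predicted or clone name, up to 4 called members per list (or 2 of the most abundant where none was called), the 5 largest rises and 5 largest falls in TPM, and a set of key genes. Cd3e and Il1b, key genes, did not pass the filter, and some genes that the rule names are not reported here. Members and lists were chosen with earlier results of these data known. Alternatives were other scalings, pseudocount 0.1, other filters and samples in the fit, library quality weights, a replicate block and leaving out each library.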

Additional observations from a re-analysis of the deposited data

How the results depend on the processing

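Scaling and single libraries moved the counts most. From TPM as deposited, 5173 genes were called, 153 higher on D14 and 5020 lower. Median-of-ratios scaling gave 2426 calls (901 higher, 1525 lower), quantile normalization 2595 (1162 and 1433), and leaving out the 50 most abundant genes 2763 (493 and 2270). Library quality weights gave 8960 calls (746 and 8214), and a fit of the 6 libraries alone 7670 (483 and 7187). Leaving out each library in turn gave from 705 to 4457 calls, from 22 to 116 of them higher and from 683 to 4341 lower, the fewest without D14 replicate 3 and the next fewest, 980, without D7 replicate 1. For KO step minus WT step, 53 genes were called with library quality weights, 1 with no filter, and 0 without any 1 library. The cause of these moves was not tested. The 12 WT libraries alone, the other pseudocount, the other filters and the block kept the counts within 1.5 times.

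Same-numbered samples of the 2 days were not taken as pairs, since their deviations from the group means correlated at 0.01, -0.01 and 0.15. With the replicate number as a block, 5226 genes were called (155 higher, 5071 lower).

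Log2 differences of 8 genes that were not called changed sign. With median-of-ratios scaling they were 0.55 for Acta1, 0.14 for Mylpf, 0.31 for Gsdme, 0.27 for Myh2, 0.043 for Chrne, 0.49 for Lyve1 and 0.28 for Cd163. With quantile normalization they were 0.51 for Gsdme (adjusted p in limma 0.0498), 0.042 for Myh2, -0.023 for Tnnt3, 0.058 for Chrne, 0.62 for Lyve1 and 0.34 for Cd163. Without the 50 most abundant genes they were 0.22 for Gsdme, 0.10 for Myh2, 0.36 for Lyve1 and 0.13 for Cd163. With 1 library left out they ranged from -0.067 to 0.033 for Acta1, from -0.17 to 0.043 for Gsdme, from -0.72 to 0.22 for Myh2 and from -0.44 to 0.33 for Lyve1. Relative to all genes, the median of 7 of 42 lists changed sign under at least 1 setting. The depth is unknown, so it cannot be said which low values it limits.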

Other observations

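Imprinted genes, which are expressed from 1 parental copy and many of which act in fetal growth, were nearly all lower on D14. The list was drawn up after the values were seen, so its counts describe these libraries and support nothing further. Of 20 imprinted genes, 19 passed the filter, 17 were called lower (36.7% of all genes tested) and 16 held (11.1%), with a median log2 difference of -2.16. On chromosome 12, beside Dlk1, the noncoding RNA Meg3 was at 217, 179.9 and 136 TPM on D7 and at 21.7, 34.7 and 11.3 TPM on D14 (log2 difference -3.03 ± 0.57, adjusted p = 0.00375), and its neighbour Rian at 239, 223 and 161 TPM and then at 14.7, 28.2 and 11.3 TPM (log2 difference -3.54 ± 0.52, adjusted p = 0.00147). All D14 libraries lay below all D7 libraries in both. Plagl1, a transcription factor, fell from 86.1, 57 and 49.7 TPM to 5.34, 5.23 and 2.74 TPM (log2 difference -3.59 ± 0.62, adjusted p = 0.0026), and Cdkn1c, a cell cycle inhibitor, from 219, 170.4 and 137 TPM to 41.4, 42.9 and 37.1 TPM (log2 difference -2.07 ± 0.36, adjusted p = 0.0026). The exceptions were Impact and Nnat, which were not called, and Gnas, a signalling subunit, called as deposited without holding. Meg3, Rian, Plagl1 and Cdkn1c kept their calls without any 1 library. Expression from each parental copy was not measured.

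Beside Amd1 and Smox, no other of 10 genes of polyamine metabolism, a list also drawn up after the values were seen, was called higher from TPM as deposited. Odc1, the ornithine decarboxylase, was at 61.1, 57.3 and 66.9 TPM on D7 and at 75.2, 64.6 and 114 TPM on D14 (log2 difference 0.41 ± 0.21, adjusted p = 0.123), and was called higher after scaling (log2 difference 0.98, adjusted p = 0.0182). Of the 10 genes, 5 were called lower (36.7% of all genes) and none of these held, among them Srm, the spermidine synthase (log2 difference -1.14 ± 0.40, adjusted p = 0.0337). Of 10 Asb genes, which encode ankyrin proteins of ubiquitin ligases, Asb2, Asb11, Asb14 and Asb15 were held higher (1.12% of all genes). Asb11 was at 34.2, 35.6 and 35.4 TPM and then at 93.8, 82.3 and 75.5 TPM (log2 difference 1.23 ± 0.36, adjusted p = 0.0166). Of 9 tested targets of the oxidative stress factor Nrf2, 3 were held higher (1.12% of all genes), namely Nqo1 (log2 difference 1.08 ± 0.21, adjusted p = 0.00455), Osgin1 and Me1. Hmox1, heme oxygenase, was called lower (log2 difference -1.53 ± 0.58, adjusted p = 0.046) without holding. The Asb list and that of Nrf2 targets were also drawn up after the values were seen. Nqo1 kept its call without any 1 library, whereas calls were lost without D7 replicate 1 for Asb2, Asb11, Asb14, Asb15, Osgin1, Me1, Srm and Hmox1 (adjusted p from 0.0646 to 0.157), without D14 replicate 3 for Asb2, Asb11, Asb14, Asb15, Osgin1, Me1, Srm and Hmox1 (adjusted p from 0.0613 to 0.152), without D7 replicate 2 for Asb2, Asb15, Osgin1, Me1 and Hmox1 (adjusted p from 0.0576 to 0.0948), without D7 replicate 3 for Asb2, Asb14, Asb15, Me1 and Hmox1 (adjusted p from 0.0557 to 0.0772), without D14 replicate 1 for Asb2, Asb15, Osgin1, Me1, Srm and Hmox1 (adjusted p from 0.0522 to 0.108) and without D14 replicate 2 for Asb14, Osgin1 and Me1 (adjusted p from 0.0527 to 0.0597). All of these genes but Amd1 and Smox were named after their values were seen.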
